A study of Drosophila melanogaster with 14 samples.

Results

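The 4 libraries of accessory calyx Kenyon cells, 2 from the γd subtype and 2 from the α/βp subtype, were compared with the 6 libraries of main calyx Kenyon cells of the same classes, 2 each from γm+d, α/βs and α/βc, with the class (γ or α/β) as a covariate. These 10 libraries are part of a series of 14. Subtypes were assigned to a calyx from the known position of their dendrites, which is no measured value of these libraries, although the comparison was taken up with earlier results of these data known. Kenyon cells are the intrinsic neurons of the mushroom body, the insect centre for associative learning. The dendrites of most Kenyon cells lie in the main calyx and receive odour input from olfactory projection neurons, whereas γd dendrites lie in the ventral accessory calyx, which receives visual input. The α/βp (pioneer) neurons, the earliest born of the α/β neurons, have their dendrites in the dorsal accessory calyx. The question is which transcripts both accessory subtypes share, beyond the class to which each belongs.

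Each library came from a split-GAL4 driver line, in which a pair of half-drivers must overlap to give GAL4 activity. MB607B (R19B03-p65.AD with R39A11-GAL4.DBD) marked γd, MB131B (R13F02-p65.AD with R89B01-GAL4.DBD) γm+d, MB371B (R13F02-p65.AD with R85D07-GAL4.DBD) α/βp, MB185B (R52H09-p65.AD with R18F09-GAL4.DBD) α/βs and MB594B (R13F02-p65.AD with R58F02-GAL4.DBD) α/βc. All lines drove the UNC84-2XGFP nuclear tag in the MJ2 background, an isogenic Canton-S derivative. Flies of both sexes, 2 to 5 days old, were pooled at 400 frozen heads per library, and RNA was read from nuclei purified on the tag (TAPIN-seq). Each line also labels small numbers of neurons outside the mushroom body. MB131B labels γd cells along with γm cells, so the γ contrast compares γd with a mixture that contains them. By the study's own counts MB371B and MB607B label fewer cells than the 3 main calyx lines, so calyx, driver line and the number of labelled cells cannot be told apart. Each class has 1 accessory driver. In bulk nuclei, fewer cells that express a gene and less RNA per cell cannot be told apart either.

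Levels are given as TPM, a share of all transcripts corrected for their length, whose values sum to the same total in each library, so the read depth behind a value is unknown and a value of 0 is given as listed at 0. The accessory libraries held fewer genes. Genes above 0 TPM numbered 5632 and 7601 in γd and 6534 and 9602 in α/βp, against 8836 to 10366 in the 6 main calyx libraries. The mean within-class difference was −2418 genes (exact permutation test over all 90 arrangements of labels within class, two-sided, p = 0.0222, adjusted p = 0.081 over 17 library measures, where the smallest possible p is 0.0111). Without α/βp replicate 1 it was −1651 (exact p = 0.133). All 10 libraries carried the Kenyon cell transcription factors at high levels, with ey between 631 and 2809 TPM and toy between 1714 and 2874 TPM, while repo, the defining gene of glia, was at most 2.18 TPM.

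**Figure D1:**
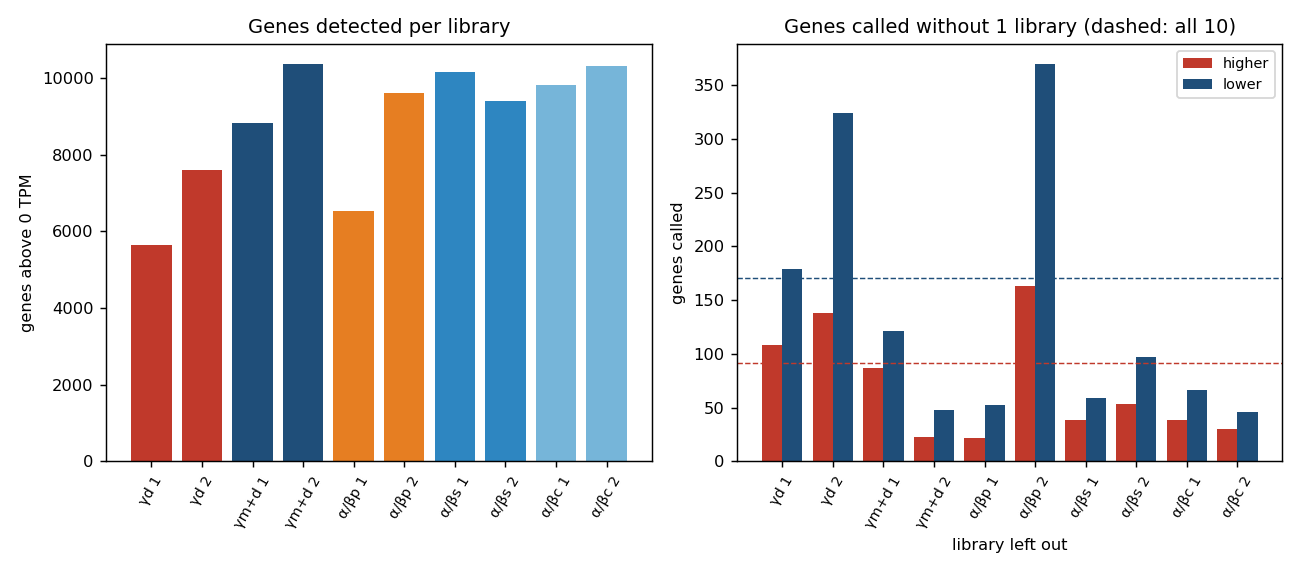
Left, genes above 0 TPM in each library, as bars (γd red, α/βp orange, main calyx subtypes blue); γd replicate 1 (5632) and α/βp replicate 1 (6534) are the lowest. Right, genes called higher (red) and lower (blue) in accessory calyx cells when 1 library is left out, with dashed lines at the counts from all 10 (91 and 171); the counts range from 22 to 163 and from 46 to 370.

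With both classes tested jointly, 91 (1.12%) of 8118 genes rose in the accessory calyx cells and 171 (2.11%) fell. The genes tested had reached 10 TPM in 1 or more of the 10 libraries, and the test was limma on quantile-normalised log2(TPM + 1), where a gene passed at a Benjamini-Hochberg adjusted p below 0.05 with a change of 2-fold or more. Together the 91 and 171 were 3.23% of the genes tested. A gene below 10 TPM throughout 1 calyx group was tested only through its values in the other group. The median log2 fold change was 2.35 over the genes that rose and −2.63 over those that fell, against −0.23 over all genes tested. The difference had the same sign in γ and in α/β for all 91 and all 171 genes, and was at least 2-fold in both classes for 79 and 140 of them. A joint test favours both, and the shares over all genes tested are not given here. The accessory libraries lay beyond the main calyx libraries of their own class, with no overlap in either class, for 64 of the genes that rose and 148 of those that fell, and this separation was seen for 2.22% of all genes tested in the upward and 8.99% in the downward direction. All 171 genes that fell were above 0 TPM in all 6 main calyx libraries, which a call in this direction favours. The share over all genes tested was not computed, so no result about these genes is drawn from it.

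How many genes passed depended on single libraries and on scaling. Left out in turn, 1 library at a time, the libraries gave these counts of genes called higher and lower: 108 and 179 without γd replicate 1, 138 and 324 without γd replicate 2, 87 and 121 without γm+d replicate 1, 23 and 48 without γm+d replicate 2, 22 and 52 without α/βp replicate 1, 163 and 370 without α/βp replicate 2, 38 and 59 without α/βs replicate 1, 53 and 97 without α/βs replicate 2, 38 and 66 without α/βc replicate 1, and 30 and 46 without α/βc replicate 2. Genes called higher made up 34.7% of calls with quantile normalisation, 16.0% (44 of 275) without any normalisation beyond TPM and 36.7% (58 of 158) with median-ratio scaling, and the median of all genes shifted from −0.23 to −0.79 and −0.47. Against 0, and not against those medians, all 91 and all 171 genes kept their sign in both rescaled fits, although within γ 7 of the 91 turned negative without normalisation and 10 of the 171 turned positive with median-ratio scaling. With each library's count of detected genes (above 0 TPM) as a further covariate, limma called 0 genes higher and 2 lower, with 787 genes at an unadjusted p under 0.05. The 2 were bru2, an RNA-binding protein gene (log2 fold change −2.69), which also fell in the comparison as reported (−1.70), and CG43291 (−2.54), at 0.12 there. With this covariate all 262 genes kept the sign of their joint effect, which stayed at least 2-fold for 74 of the 91 and 131 of the 171. Within γ, however, 8 of the 91 turned negative and 20 of the 171 turned positive, and within α/β 2 of the 171 turned positive. With 1 averaged value per subtype limma called 0 genes, with 1295 at an unadjusted p under 0.05. The role of gene detection in the calls was not tested further.

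Within α/β alone 44 of the 91 genes (48.4%) and 77 of the 171 (45.0%) also passed, and within γ alone 3 (3.30%) and 9 (5.26%). Over all genes tested, within γ, with 2 libraries against 2, 9 genes rose (0.111%) and 25 fell (0.308%), together 0.419% of genes tested, and within α/β, with 2 against 4, 114 rose (1.40%) and 146 fell (1.80%), together 3.20%. The class contrasts share no library, and 1 gene rose in both, which is 11.1% of the γ list and 0.877% of the α/β list. Another 4 fell in both (16.0% and 2.74%), so that 0.0616% of genes tested passed in both classes in 1 direction. Across the 8118 genes, which are not independent replicates, the γ and α/β effects had a Pearson r of 0.23. These counts moved with single libraries: the γ comparison called 1 gene without γm+d replicate 1 or γm+d replicate 2, 2 without α/βs replicate 1, 12 without γd replicate 1, 19 without α/βs replicate 2, 20 without α/βc replicate 1, 57 without α/βp replicate 1, 97 without α/βp replicate 2 and 764 without γd replicate 2. The α/β comparison called 77 without α/βp replicate 1, 83 without α/βc replicate 2, 97 without α/βs replicate 1, 102 without α/βc replicate 1, 135 without α/βs replicate 2, 160 and 163 without γm+d replicate 2 and γm+d replicate 1, 411 and 430 without γd replicate 1 and γd replicate 2, and 705 without α/βp replicate 2. The number called in both was 0 without γm+d replicate 1, γm+d replicate 2 or α/βs replicate 1, 2 without γd replicate 1, α/βp replicate 1, α/βs replicate 2, α/βc replicate 1 or α/βc replicate 2, 20 without α/βp replicate 2 and 76 without γd replicate 2.

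**Figure D2:**
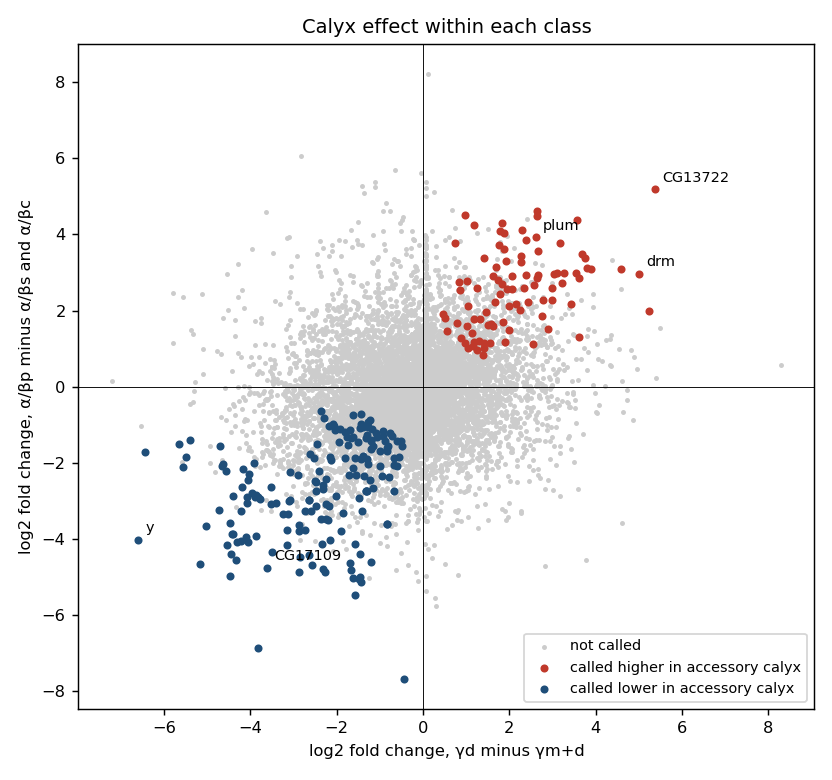
Each point is 1 of 8118 genes, at its log2 fold change of γd minus γm+d (x axis) and of α/βp minus α/βs and α/βc (y axis). The 91 genes called higher (red) and the 171 called lower (blue) in accessory calyx cells lie in the quadrants where both classes move the same way; grey points were not called.

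CG13722 (chr3L:4485159-4490963, minus strand, BDGP6) was the gene with the largest rise and the only one that rose in both classes. It stood at 411 and 287 TPM in the γd libraries, 12.2 and 9.74 in γm+d, 758 and 371 in α/βp, 19.0 and 65.5 in α/βs and 17.3 and 6.98 in α/βc. All 4 accessory libraries lay more than 4-fold above the highest main calyx library, and the α′/β′ libraries, which are of the remaining class, were also low at 17.0 to 32.5 TPM. The log2 fold change was 5.28 ± 0.64 (adjusted p = 0.00342), with 5.38 in γ and 5.20 in α/β, and the call held without each of the 10 libraries in turn (adjusted p 0.000446 to 0.0232).

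The 4 genes that fell in both classes differed in how far. yellow (y, chrX:356509-361245, plus strand), which is needed for dark cuticle pigment, stood at 0 and 0 TPM in the γd libraries, 73.5 and 143 in γm+d, 0.12 and 4.28 in α/βp, 124 and 80.0 in α/βs and 29.0 and 58.4 in α/βc. It was listed at 0 in both γd libraries and present in every main calyx library (log2 fold change −5.12 ± 0.65, adjusted p = 0.00342). CG17109 (chr3R:23095690-23097240, plus strand) stood at 0.37 and 12.7 TPM in the γd libraries, 83.1 and 277 in γm+d, 0.81 and 13.9 in α/βp, 244 and 121 in α/βs and 129.7 and 281 in α/βc. The accessory and main libraries did not overlap (log2 fold change −4.26 ± 0.46, adjusted p = 0.00209), the smallest adjusted p among the named genes of this comparison. CG6154 (chr3R:26262662-26277050, plus strand) stood at 0.58 and 18.1 TPM in the γd libraries, 235 and 241 in γm+d, 27.0 and 25.3 in α/βp, 240.4 and 248 in α/βs and 106 and 116 in α/βc, and its highest accessory value was more than 3-fold below its lowest main calyx value (log2 fold change −3.27 ± 0.47, adjusted p = 0.00632). CG42238 (chr2L:20965520-21052164, minus strand), the most abundant of the 4, stood at 822 and 842 TPM in the γd libraries, 2318 and 1997 in γm+d, 952 and 875 in α/βp, 1883 and 2210.3 in α/βs and 1517 and 1794 in α/βc. Its 4 accessory libraries formed a narrow band below all main calyx libraries (log2 fold change −1.20 ± 0.16, adjusted p = 0.00354). With median-ratio scaling its log2 fold change was −0.69 and the call was lost (adjusted p = 0.168). All 4 calls held without each library in turn.

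Among the other genes with the largest rises were developmental regulators and secreted or surface proteins. The largest rises and falls given here were taken from calls whose libraries do not overlap within either class, so that separation is part of the choice. drumstick (drm), a zinc finger gene of the odd-skipped family, stood at 82.0 and 73.2 TPM in the γd libraries, 1.71 and 5.32 in γm+d, 23.5 and 49.0 in α/βp, 10.3 and 5.78 in α/βs and 7.89 and 1.51 in α/βc, with the highest values in γd (log2 fold change 3.85 ± 0.64, adjusted p = 0.0104). plum, an immunoglobulin superfamily gene known from mushroom body axon pruning, stood at 95.6 and 119 TPM in the γd libraries, 22.6 and 26.4 in γm+d, 196 and 108 in α/βp, 9.58 and 15.9 in α/βs and 8.26 and 22.6 in α/βc, a separation seen in both classes (log2 fold change 3.37 ± 0.49, adjusted p = 0.00714). Both calls held without each library in turn. CG13337 had 29.8 and 15.5 TPM in γd, 40.7 and 51.7 in α/βp, and a median of 4.23 in the main calyx libraries (lowest 1.98, highest 6.59), with the higher values in α/βp (log2 fold change 3.52 ± 0.59, adjusted p = 0.0104). Since no main calyx library reached 10 TPM, CG13337 was tested only through its accessory libraries. CG32694 had 411 and 90.0 TPM in γd, 55.3 and 118 in α/βp, and a median of 17.0 in the main calyx libraries (lowest 6.35, highest 23.5), with its highest value in γd replicate 1 (log2 fold change 3.44 ± 0.58, adjusted p = 0.0104). These calls too held without each library.

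The remaining largest rises lost their call without at least 1 library. unc-4, a homeodomain transcription factor gene, had 26.3 and 1.74 TPM in γd, 43.2 and 34.0 in α/βp, and a median of 0.485 in the main calyx libraries (lowest 0.23, highest 3.86), and γd replicate 2 was lower than α/βs replicate 1 (log2 fold change 4.03 ± 0.76, adjusted p = 0.0153; 0.0508 without γm+d replicate 2 and 0.0628 without α/βp replicate 1). crossveinless 2 (cv-2), which encodes a secreted BMP-binding protein, had 2.91 and 15.01 TPM in γd, 92.0 and 26.2 in α/βp, and a median of 3.47 in the main calyx libraries (lowest 0.34, highest 8.03) (log2 fold change 3.58 ± 0.67, adjusted p = 0.0153; 0.0642 without α/βp replicate 1). For both genes α/βp was the higher accessory subtype and the γd replicates differed by more than 5-fold. piopio (pio), an apical matrix protein gene, had 71.1 and 17.1 TPM in γd, 28.9 and 30.1 in α/βp, and a median of 4.72 in the main calyx libraries (lowest 3.30, highest 5.46) (log2 fold change 3.23 ± 0.63, adjusted p = 0.0192; 0.0638 without γm+d replicate 2 and 0.0721 without α/βp replicate 1). rhomboid (rho), which encodes a protease that releases EGF receptor ligands, had 10.2 and 7.06 TPM in γd, 133 and 50.0 in α/βp, and a median of 4.90 in the main calyx libraries (lowest 4.28, highest 12.1) (log2 fold change 3.23 ± 0.68, adjusted p = 0.0261; call lost without γm+d replicate 2, α/βp replicate 1, α/βs replicate 1, α/βc replicate 1 or α/βc replicate 2, adjusted p 0.0542 to 0.104). The highest values of rho were those of α/βp, and the α′/β′ libraries were at 37.3 to 55.5 TPM. Lsd-1, a lipid droplet perilipin gene, had 9.35 and 2.65 TPM in γd, 119.9 and 45.1 in α/βp, and a median of 5.98 in the main calyx libraries (lowest 0, highest 17.6) (log2 fold change 3.54 ± 0.70, adjusted p = 0.0203; call lost without γm+d replicate 2, α/βp replicate 1 or α/βc replicate 2, adjusted p 0.0534 to 0.078). CG34309 had 260.3 and 145 TPM in γd, 237 and 79.7 in α/βp, and a median of 17.4 in the main calyx libraries (lowest 0, highest 87.8) (log2 fold change 3.24 ± 0.78, adjusted p = 0.0405; call kept only without γd replicate 2, γm+d replicate 1, α/βp replicate 2 or α/βc replicate 1, otherwise adjusted p 0.0544 to 0.159). CG18233 had 13.5 and 1.91 TPM in γd, 92.9 and 10.9 in α/βp, and a median of 2.50 in the main calyx libraries (lowest 0, highest 5.85) (log2 fold change 3.41 ± 0.87, adjusted p = 0.0468) and few left-out fits kept its call (call kept only without γd replicate 2 or α/βp replicate 2, otherwise adjusted p 0.0619 to 0.149). Exons of Lsd-1 and CG34309 overlap a gene on the opposite strand by 144 and 223 bases. Without normalisation beyond TPM the adjusted p was above 0.05 for cv-2, Lsd-1, CG18233, CG34309 and rho, and with median-ratio scaling for CG18233 and rho. No main calyx library reached 10 TPM for unc-4, cv-2, pio or CG18233, so these were tested only through accessory libraries. Without the filter on low values the adjusted p was above 0.05 for unc-4 (0.0521), Lsd-1 (0.0528), rho (0.0638), CG34309 (0.103) and CG18233 (0.109).

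**Figure D3:**
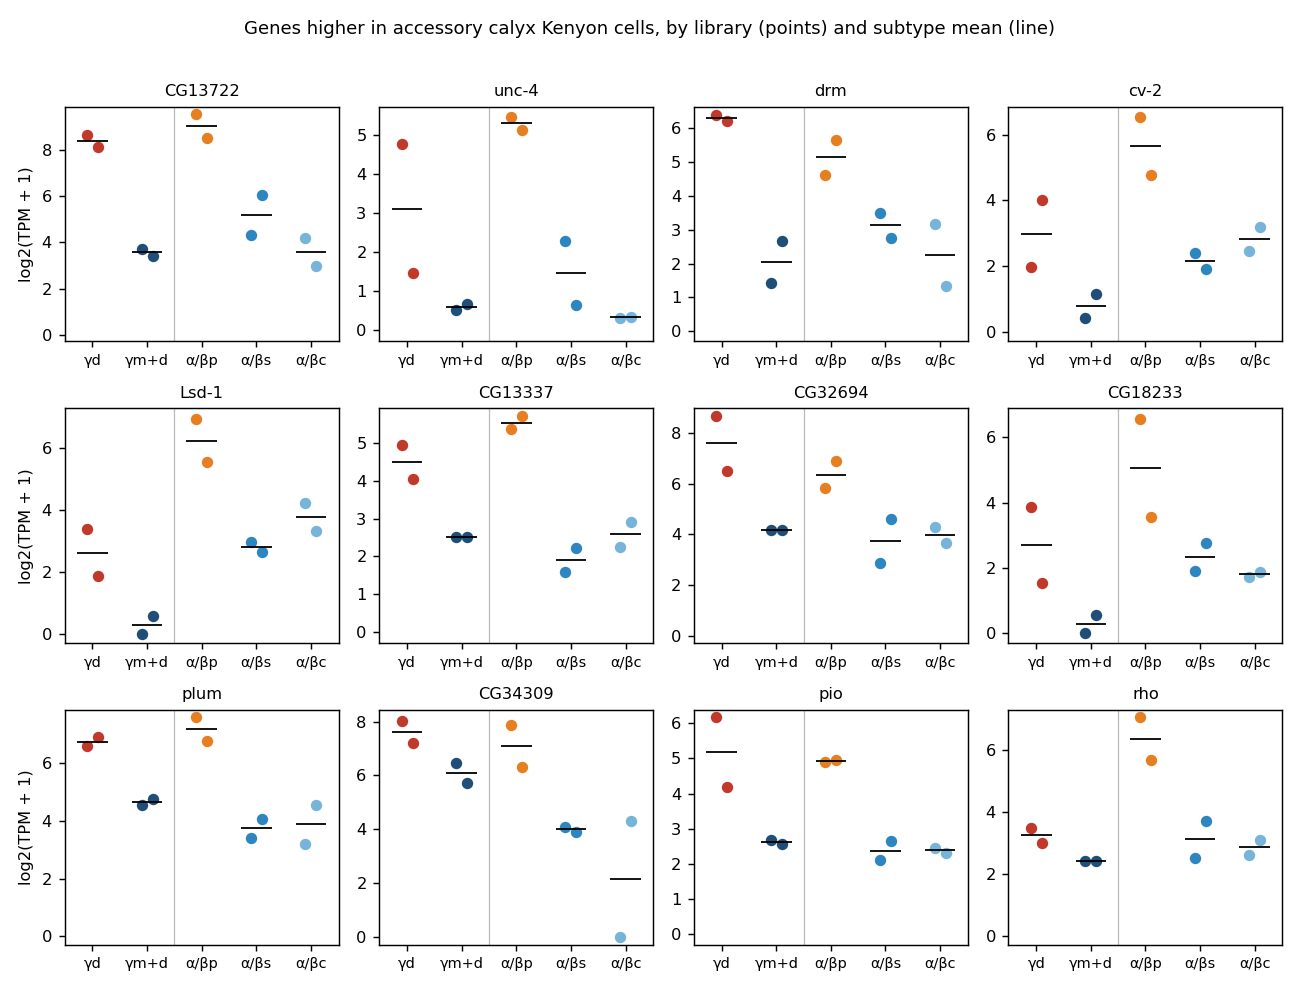
Log2(TPM + 1) of the 12 called genes with the largest rises whose libraries do not overlap within either class, 1 panel per gene, with 2 libraries per subtype as points and their mean as a line (γ subtypes left of the grey line). CG13722 shows all 4 accessory libraries above all 6 main calyx libraries; in rho and cv-2 the γd points lie close to or below those of α/βs and α/βc.

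Among the largest falls were genes listed at 0 in several accessory libraries, and others with a higher value in 1 of them. CG33970 had 0 and 0 TPM in the γd libraries, 11.5 and 53.0 in γm+d, 0 and 3.28 in α/βp, 62.0 and 71.1 in α/βs and 32.9 and 82.7 in α/βc, and 3 of its 4 accessory libraries were listed at 0 (log2 fold change −4.75 ± 0.61, adjusted p = 0.00342). ND-MNLL, a subunit of respiratory complex I, had 0 and 0 TPM in the γd libraries, 10.5 and 49.0 in γm+d, 0 and 8.09 in α/βp, 44.1 and 78.8 in α/βs and 64.6 and 48.9 in α/βc, again with 3 accessory libraries listed at 0 (log2 fold change −4.45 ± 0.63, adjusted p = 0.00607). Its exons share 720 bases on the same strand with CG45089, so these 2 genes' transcripts can be split between them. Obp19a, an odorant-binding protein gene, had 0 and 0 TPM in the γd libraries, 37.7 and 16.8 in γm+d, 0 and 0.79 in α/βp, 9.64 and 27.4 in α/βs and 42.0 and 53.9 in α/βc (log2 fold change −4.17 ± 0.74, adjusted p = 0.0123), and it was listed at 0 in all 4 α′/β′ libraries. CG14434 had 0 and 9.17 TPM in γd, 0.4 and 10.9 in α/βp, and a median of 93.6 in the main calyx libraries (lowest 62.4, highest 117) (log2 fold change −4.11 ± 0.64, adjusted p = 0.00854). CG18537 had 0 and 18.5 TPM in γd, 3.06 and 14.1 in α/βp, and a median of 141 in the main calyx libraries (lowest 72.4, highest 193) (log2 fold change −4.24 ± 0.72, adjusted p = 0.0104). In both genes γd replicate 2 and α/βp replicate 2 held more than the other replicate of their subtype. CG43068 had 0 and 0.49 TPM in γd, 0 and 8.82 in α/βp, and a median of 54.6 in the main calyx libraries (lowest 20.2, highest 111) (log2 fold change −4.41 ± 0.71, adjusted p = 0.00901). CG34180, which shares 97 exonic bases with ND-51 on the opposite strand, had 0 and 6.84 TPM in γd, 0 and 1.70 in α/βp, and a median of 39.3 in the main calyx libraries (lowest 20.7, highest 170.3) (log2 fold change −4.32 ± 0.73, adjusted p = 0.0104). The calls for these 7 genes held without each library in turn.

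CG31371 had the lowest log2 fold change. It stood at 0 and 67.1 TPM in the γd libraries, 92.5 and 206 in γm+d, 0 and 0.51 in α/βp, 96.9 and 83.2 in α/βs and 223 and 243 in α/βc, and γd replicate 2 reached 67.1 TPM while the other accessory libraries were at or below 0.51 (log2 fold change −5.56 ± 0.98, adjusted p = 0.0123; 0.0566 without α/βp replicate 1). CG45218 had 0 and 6.50 TPM in γd, 0 and 137 in α/βp, and a median of 238 in the main calyx libraries (lowest 49.9, highest 659.7) (log2 fold change −4.87 ± 1.08, adjusted p = 0.0288; call lost without γd replicate 1, γm+d replicate 2, α/βp replicate 1, α/βs replicate 1 or α/βc replicate 2, adjusted p 0.0572 to 0.105). α/βp replicate 2 was within the range of the γm+d libraries. CG42733 had 0 and 8.79 TPM in γd, 0 and 4.23 in α/βp, and a median of 57.8 in the main calyx libraries (lowest 12.9, highest 109) (log2 fold change −4.11 ± 0.81, adjusted p = 0.0194; call lost without γm+d replicate 2, α/βp replicate 1 or α/βc replicate 2, adjusted p 0.0534 to 0.0721).

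**Figure D4:**
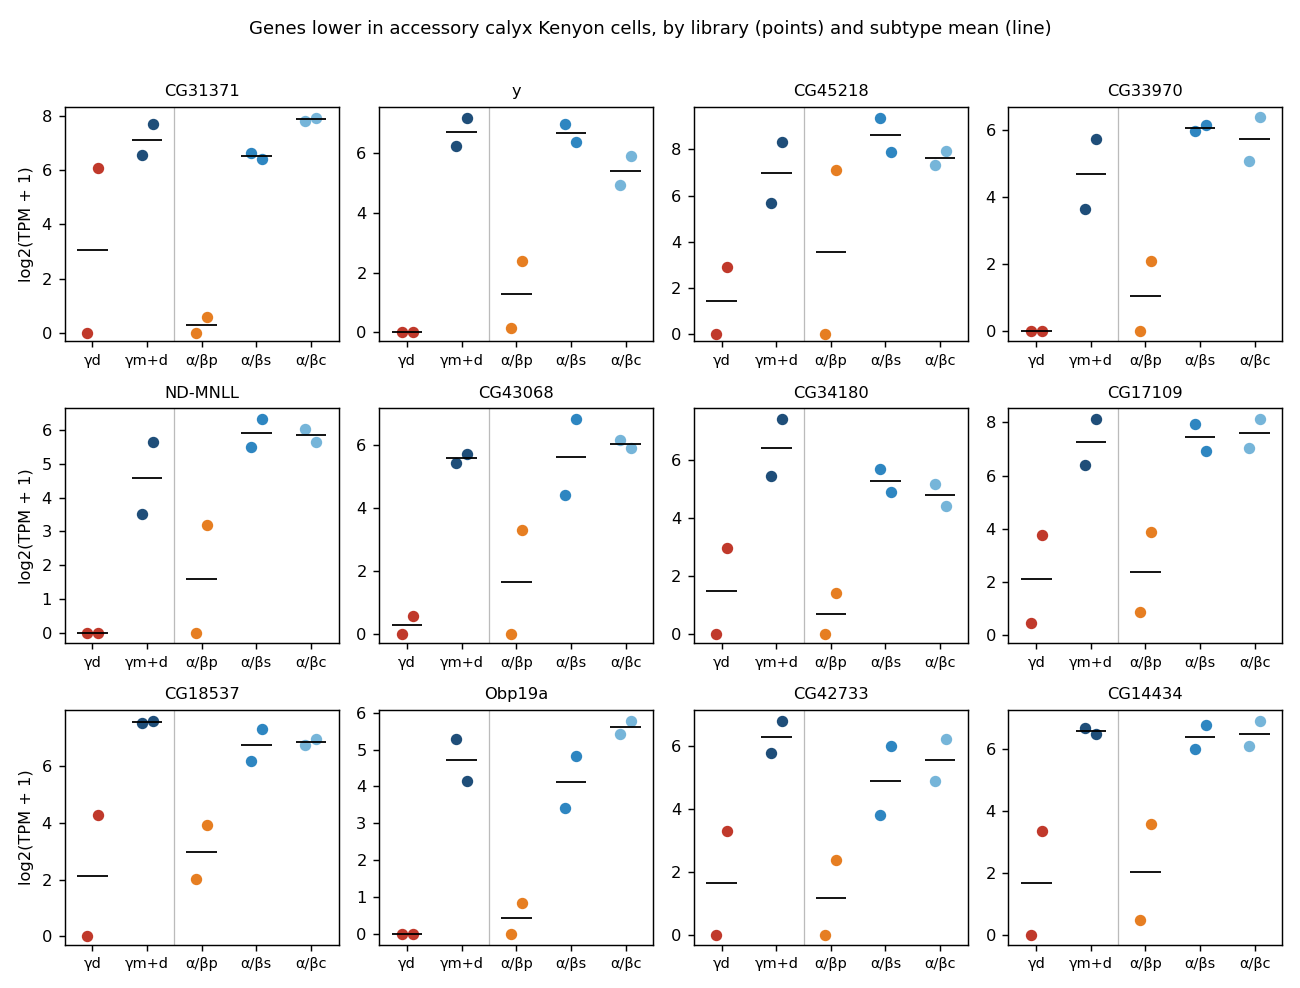
Log2(TPM + 1) of the 12 called genes with the largest falls whose libraries do not overlap within either class, drawn as in the plot of the largest rises. Points at 0 are libraries in which the gene is listed at 0 TPM; for y both γd libraries lie there, and for CG33970 both γd libraries and α/βp replicate 1.

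By annotation the median exonic length was 4303 bases for the genes that rose, 1507 for those that fell and 2103 for all genes tested, and the median gene span was 16618, 1859 and 2859 bases. Single-exon genes made up 5.49%, 17.2% and 11.5%. Of the genes that fell, 78 of 171 (45.6%) were listed at 0 in at least 1 accessory library, against 3693 of 8118 (45.5%) of all genes tested, whereas 4 were listed at 0 in all 4 accessory libraries. These shares compare unlike sets. The mean TPM over the 10 libraries had a median of 86.2 over the genes that fell and 18.6 over all genes tested. Shares at 0 among genes of like level were not compared. γd replicate 1 listed 63 of the 171 (36.8%) at 0, against 35.8% of all genes tested, and α/βp replicate 1 64 (37.4%), against 27.1%. These are the 2 libraries in which the fewest genes were detected, and their part in the falls was not tested beyond leaving them out. Of the genes that rose, 81 of 91 (89.0%) were above 0 TPM in all 10 libraries, against 53.8% of all genes tested. Without γd replicate 1 and α/βp replicate 1 together, 45 genes were called higher and 104 lower, of which 24 and 66 were among the 91 and 171. Some neighbouring genes fell together and others rose together, such as sls and zormin. The runs given here were chosen after their values were seen. Of the runs that fell, PH4alphaNE1, CG31371, PH4alphaSG1, CG15539 and CG34041, of which the PH4alpha genes encode prolyl 4-hydroxylase subunits, lie next to one another at chr3R:30496751-30510146, and CG17110, CG17109, CG6733 and CG6738 at chr3R:23091724-23100983. Exons of CG17110 share 2911 bases on the same strand with CG6726, which was not called lower, so transcripts can be split between these 2 genes.

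Kenyon cells receive acetylcholine from their main inputs, and 2 of the 9 tested nicotinic receptor subunit genes rose while none fell, against 1.12% and 2.11% of all genes. nAChRalpha3 stood at 29.0 and 23.8 TPM in the γd libraries, 7.70 and 9.74 in γm+d, 61.2 and 73.3 in α/βp, 5.86 and 8.82 in α/βs and 9.58 and 6.94 in α/βc, with every accessory library above every main calyx library (log2 fold change 3.18 ± 0.53, adjusted p = 0.0104), and the call held without each library in turn. It shares 251 exonic bases with CG1636 on the opposite strand. No main calyx library reached 10 TPM (highest 9.74), so nAChRalpha3 was tested only through its accessory libraries. nAChRalpha7 stood at 1158 and 756 TPM in the γd libraries, 726 and 564 in γm+d, 686 and 563 in α/βp, 230.2 and 249 in α/βs and 168 and 133 in α/βc. It was higher in the γ libraries as a whole, α/βp reached the level of γm+d, and the log2 fold change was 1.80 in α/β and 0.51 in γ (log2 fold change 1.25 ± 0.30, adjusted p = 0.0405; call kept only without γd replicate 1, γd replicate 2 or γm+d replicate 1, otherwise adjusted p 0.0544 to 0.141). The subunits with the highest levels did not pass the test, with log2 fold changes of 0.25 for nAChRbeta1, −0.15 for nAChRalpha5 and −0.09 for nAChRalpha6 (adjusted p = 0.257, 0.633 and 0.787). The median over the 9 subunits was −0.09. Of the 3 muscarinic, 5 GABA and 9 glutamate receptor genes tested, none passed, and their medians were −0.57, −0.06 and −0.44. At an unadjusted p under 0.05 limma gave 1, 1 and 3 of them, against 1785 of all 8118 genes tested. Without normalisation or with median-ratio scaling it also called none of these receptor genes.

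Octopamine receptors moved in both directions. Octbeta1R stood at 532 and 767 TPM in the γd libraries, 877 and 1079 in γm+d, 476 and 624.7 in α/βp, 1455 and 1464 in α/βs and 1409.8 and 1502 in α/βc, with α/βp more than 2-fold below every other α/β library (log2 fold change −1.07 ± 0.21, adjusted p = 0.0192). Its call was lost without α/βp replicate 1 (adjusted p = 0.0721), and with median-ratio scaling its log2 fold change was −0.59. Octbeta2R, which couples to cAMP production, stood at 51.1 and 135 TPM in the γd libraries, 32.6 and 34.5 in γm+d, 50.3 and 64.4 in α/βp, 28.4 and 17.5 in α/βs and 20.9 and 21.5 in α/βc. All accessory libraries were above all main calyx libraries (log2 fold change 1.77 ± 0.40, adjusted p = 0.0321; call kept only without γd replicate 1, γd replicate 2, γm+d replicate 1 or α/βp replicate 2, otherwise adjusted p 0.0549 to 0.0992), and without normalisation the call was lost (1.32, adjusted p = 0.103). These were the only 2 calls among 15 amine receptor genes, where 1.12% of all genes rose and 2.11% fell. The dopamine receptor genes had log2 fold changes of −0.70 (Dop1R1), −0.57 (Dop1R2), −0.59 (Dop2R) and 0.11 (DopEcR), with adjusted p from 0.119 to 0.753. The serotonin receptor gene 5-HT1A had an adjusted p of 0.0484 but less than a 2-fold difference over both classes jointly (−0.90). Its γ libraries lay further apart than that, with 36.7 and 56.6 TPM in γd against 189 and 219 in γm+d. Its α/β values are not given here.

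Of 30 neuropeptide receptor genes 1 rose and none fell, where 1.12% of all genes rose and 2.11% fell. None of 24 neuropeptide genes passed (1 at an unadjusted p under 0.05, against 1785 of all 8118 genes). Pdfr, the receptor of the circadian peptide PDF, stood at 0.14 and 9.67 TPM in the γd libraries, 1.48 and 3.74 in γm+d, 5.39 and 86.2 in α/βp, 4.42 and 1.99 in α/βs and 5.17 and 3.37 in α/βc. The highest value, in α/βp replicate 2, stood far above its replicate, and γd overlapped γm+d (log2 fold change 2.71 ± 0.69, adjusted p = 0.0478). Pdfr was not tested without α/βp replicate 2, since no other library reached 10 TPM, and the call was unstable (call kept only without γd replicate 1, otherwise adjusted p 0.062 to 0.11). Without normalisation the log2 fold change was 1.36 (adjusted p = 0.365).

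In each list of genes for excitability, release and intracellular signalling 1 gene passed, where 3.23% of all genes did. Of 25 ion channel genes only Elk, a potassium channel of the ether-a-go-go family, passed. It stood at 187 and 159 TPM in the γd libraries, 293 and 536 in γm+d, 309 and 278 in α/βp, 1048 and 863 in α/βs and 1314 and 1579 in α/βc, lower in the accessory subtype of each class (log2 fold change −1.62 ± 0.27, adjusted p = 0.0104), and the call held without each library in turn. The log2 fold change was −2.09 in α/β and −0.99 in γ. With median-ratio scaling the adjusted p was 0.0787. Fife, an active zone scaffold gene, was the only one of 26 release genes to pass, at 1265 and 634 TPM in the γd libraries, 1177 and 1347 in γm+d, 490.0 and 400.3 in α/βp, 1586 and 1623 in α/βs and 1379 and 1590.0 in α/βc. It fell in α/βp, while γd replicate 1 lay between the γm+d libraries (log2 fold change −1.29 ± 0.25, adjusted p = 0.0192; 0.0721 without α/βp replicate 1). With median-ratio scaling it was −0.76 (adjusted p = 0.268), with 0.32 within γ. Of 27 cAMP and memory genes only CrebA, a bZIP regulator of the secretory pathway, passed. It stood at 79.4 and 39.0 TPM in the γd libraries, 14.2 and 11.5 in γm+d, 36.5 and 73.5 in α/βp, 35.1 and 28.6 in α/βs and 16.7 and 16.9 in α/βc (log2 fold change 2.11 ± 0.54, adjusted p = 0.0478; call kept only without α/βp replicate 2, otherwise adjusted p 0.053 to 0.137). Its call was also lost without normalisation (adjusted p = 0.101) and with median-ratio scaling (0.0641). rutabaga (rut), the adenylyl cyclase gene required for olfactory learning, had a log2 fold change of −0.57 (adjusted p = 0.0790). No innexin gene of 5 passed (1 at an unadjusted p under 0.05, against 1785 of all 8118 genes).

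Cell surface recognition genes moved in both directions, 8 up and 6 down of 121 tested over the 4 lists of such genes (1.12% and 2.11% of all genes tested), and most of their calls rested on particular libraries. Dscam3, an immunoglobulin surface gene, stood at 58.0 and 38.5 TPM in the γd libraries, 21.7 and 45.8 in γm+d, 95.9 and 148 in α/βp, 9.86 and 12.2 in α/βs and 5.83 and 10.0 in α/βc. In α/βp it was more than 7-fold above every other α/β library, whereas γd overlapped γm+d (log2 fold change 2.94 ± 0.60, adjusted p = 0.0232; 0.0849 without α/βp replicate 1 and 0.0517 without α/βc replicate 2). Drl-2, a Wnt receptor gene of the Ryk family, stood at 358 and 574 TPM in the γd libraries, 241 and 236 in γm+d, 992 and 648 in α/βp, 89.7 and 101 in α/βs and 192 and 141 in α/βc (log2 fold change 2.02 ± 0.36, adjusted p = 0.0123; 0.0566 without α/βp replicate 1). Its accessory libraries were above the main calyx libraries of their class, and the α′/β′ libraries were as high at 801 to 981 TPM. kek2, a leucine-rich repeat and immunoglobulin gene, stood at 40.0 and 11.02 TPM in the γd libraries, 22.0 and 26.1 in γm+d, 226 and 219 in α/βp, 19.3 and 15.9 in α/βs and 24.5 and 29.1 in α/βc, high in α/βp, and within γ its log2 fold change was 0.74 as reported and −0.17 without normalisation (log2 fold change 2.47 ± 0.60, adjusted p = 0.0406; call kept only without γd replicate 2 or γm+d replicate 1, otherwise adjusted p 0.0572 to 0.147). beat-IIIb, of the Beat family of axon guidance proteins, stood at 3.91 and 38.7 TPM in the γd libraries, 106 and 99.0 in γm+d, 39.4 and 28.9 in α/βp, 134 and 112 in α/βs and 125 and 154 in α/βc, with all accessory libraries lower (log2 fold change −1.92 ± 0.40, adjusted p = 0.0258; call lost without γm+d replicate 2, α/βs replicate 1, α/βc replicate 1 or α/βc replicate 2, adjusted p 0.0523 to 0.0617). beat-Vb stood at 0 and 0.32 TPM in the γd libraries, 30.9 and 75.2 in γm+d, 0 and 0.53 in α/βp, 1.49 and 17.0 in α/βs and 9.93 and 7.91 in α/βc, at or near 0 in accessory cells (log2 fold change −3.18 ± 0.80, adjusted p = 0.046; call kept only without γd replicate 2, α/βp replicate 2 or α/βs replicate 1, otherwise adjusted p 0.0662 to 0.144). The Beat proteins are known as ligands or receptors of the Side family.

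The other surface genes that rose were stan, a flamingo-type cadherin gene (log2 fold change 2.77 ± 0.62, adjusted p = 0.0292), Ten-m, a teneurin (1.83 ± 0.43, 0.0352), DIP-delta, a receptor for Dpr proteins (2.71 ± 0.67, 0.0439), beat-IIa (2.49 ± 0.59, 0.0363) and CG34371 (2.53 ± 0.55, 0.0273). Only stan had no overlap in either class, with 7.11 and 19.4 TPM in γd, 51.9 and 27.6 in α/βp, and a median of 5.59 in the main calyx libraries (lowest 4.78, highest 8.35). No main calyx library reached 10 TPM for stan or DIP-delta (highest 7.99 for DIP-delta), so both were tested only through accessory libraries. Without the filter on low values both lost their call (adjusted p = 0.0643 and 0.0953). DIP-delta reached 11.2 and 42.2 TPM in α/βp but 1.52 and 3.32 in γd, against 2.03 and 0.49 in γm+d. Those that fell were dpr6, whose protein family binds DIPs (−1.28 ± 0.30, 0.0358), the cadherin kinase gene Cad96Ca (−1.75 ± 0.45, 0.0469), CG34113 (−1.06 ± 0.26, 0.0405) and frizzled (fz), a Wnt receptor of planar polarity (−1.13 ± 0.28, 0.0445). The libraries of these 4 did not overlap within either class. For dpr6 the values were 11.1 and 33.6 TPM in the γd libraries, 61.2 and 82.4 in γm+d, 82.5 and 218 in α/βp, 409 and 308 in α/βs and 428 and 492 in α/βc. Ten-m shares 656 exonic bases with a long non-coding RNA gene on its strand, so its transcripts can be split between both. All these calls were lost without γm+d replicate 2 and without α/βp replicate 1, among others. The stan call was lost without γm+d replicate 2, α/βp replicate 1, α/βs replicate 1, α/βc replicate 1 or α/βc replicate 2, with an adjusted p of 0.059 to 0.114. The Ten-m call was kept only without γd replicate 1, γd replicate 2 or γm+d replicate 1, with an adjusted p elsewhere of 0.0539 to 0.11. The DIP-delta call was kept only without γd replicate 2 or γm+d replicate 1, with an adjusted p elsewhere of 0.0597 to 0.131. The beat-IIa call was kept only without γd replicate 2 or α/βp replicate 2, with an adjusted p elsewhere of 0.0519 to 0.108. The CG34371 call was kept only without γd replicate 1, γd replicate 2, γm+d replicate 1 or α/βs replicate 2, with an adjusted p elsewhere of 0.0529 to 0.0749. The dpr6 call was kept only without γd replicate 1, γd replicate 2 or α/βp replicate 2, with an adjusted p elsewhere of 0.0511 to 0.107. The Cad96Ca call was kept only without γd replicate 1 or α/βp replicate 2, with an adjusted p elsewhere of 0.057 to 0.118. The CG34113 call was kept only without γd replicate 2, γm+d replicate 1 or α/βp replicate 2, with an adjusted p elsewhere of 0.0541 to 0.121. The fz call was kept only without γd replicate 1, γm+d replicate 1 or α/βp replicate 2, with an adjusted p elsewhere of 0.0563 to 0.142. Without normalisation none of the 8 surface genes that rose kept its call other than Drl-2, and of the 6 that fell Cad96Ca and fz lost theirs (adjusted p = 0.0615 and 0.0569). With median-ratio scaling the calls of beat-IIIb (adjusted p = 0.0639), dpr6 (0.0632), Cad96Ca (0.112), CG34113 (log2 fold change −0.69, 0.147) and fz (−0.80, 0.135) were lost, and beat-Vb alone of those that fell kept its call. Of those that rose, kek2 (adjusted p = 0.0673), stan (0.0734), CG34371 (0.0864), beat-IIa (0.107) and DIP-delta (0.156) lost their call with that scaling. Dscam3, Drl-2 and Ten-m kept theirs.

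Transcription factor genes of the homeodomain and patterning list included 5 that rose and 0 that fell of 41 tested, against 1.12% and 2.11% of all genes. Their median log2 fold change was 1.03 against −0.23 over all genes. Of the 41, 33 were above 0, as were 3287 of all 8118 genes tested. Without normalisation the median was 0.25 (all genes −0.79) with 25 above 0 (1870 of all 8118), and 1 was called higher (44 of all 8118). dorsal (dl), an NF-kB family gene, stood at 27.4 and 59.1 TPM in the γd libraries, 18.9 and 24.2 in γm+d, 189 and 325 in α/βp, 67.6 and 63.5 in α/βs and 59.6 and 36.1 in α/βc, with the highest levels in α/βp (log2 fold change 2.15 ± 0.39, adjusted p = 0.0125). Its call held without each library but was lost without normalisation (1.61, adjusted p = 0.0604) and without the class covariate (1.89, adjusted p = 0.0973). cut (ct), a homeodomain gene, stood at 66.6 and 18.3 TPM in the γd libraries, 7.15 and 6.08 in γm+d, 76.4 and 37.8 in α/βp, 9.73 and 11.3 in α/βs and 6.93 and 6.06 in α/βc, with all accessory libraries higher (log2 fold change 3.11 ± 0.63, adjusted p = 0.0232; call lost without γm+d replicate 2, α/βp replicate 1 or α/βc replicate 2, adjusted p 0.0534 to 0.0914). bifid (bi), a T-box gene known from optic lobe development, stood at 79.6 and 76.5 TPM in the γd libraries, 13.9 and 17.3 in γm+d, 43.9 and 27.4 in α/βp, 6.88 and 6.26 in α/βs and 12.1 and 12.01 in α/βc, with γd the highest subtype (log2 fold change 2.58 ± 0.53, adjusted p = 0.0244; call lost without γm+d replicate 2, α/βp replicate 1, α/βs replicate 1 or α/βc replicate 2, adjusted p 0.0505 to 0.0881). ct and bi were thus above the main calyx libraries in both accessory subtypes. disco-r, a zinc finger gene, stood at 5.09 and 3.38 TPM in the γd libraries, 4.67 and 3.29 in γm+d, 49.8 and 88.9 in α/βp, 4.44 and 3.49 in α/βs and 4.24 and 11.1 in α/βc. In TPM the γd and γm+d libraries overlapped, and the γ effect of 1.88 after quantile normalisation was 0.07 without it (log2 fold change 3.12 ± 0.67, adjusted p = 0.0261; call lost without γm+d replicate 2, α/βp replicate 1, α/βs replicate 1, α/βc replicate 1 or α/βc replicate 2, adjusted p 0.0576 to 0.0928). apterous (ap), a LIM-homeodomain gene, stood at 10.1 and 27.1 TPM in the γd libraries, 11.7 and 13.3 in γm+d, 20.7 and 43.1 in α/βp, 7.76 and 3.10 in α/βs and 8.15 and 6.99 in α/βc, also with overlap in γ, where the effect of 1.82 became 0.39 without normalisation (log2 fold change 2.33 ± 0.54, adjusted p = 0.0349; call kept only without γd replicate 1, γd replicate 2, γm+d replicate 1 or α/βp replicate 2, otherwise adjusted p 0.0595 to 0.106).

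Of 27 temporal identity and remodelling genes 1 rose and 1 fell, where 1.12% of all genes rose and 2.11% fell. broad (br), a zinc finger gene of the ecdysone response, stood at 111 and 30.1 TPM in the γd libraries, 48.4 and 44.3 in γm+d, 1504 and 967 in α/βp, 157 and 166 in α/βs and 229 and 198 in α/βc. The α/βp values were well above those of all other libraries, and γd replicate 2 was below both γm+d libraries (log2 fold change 1.93 ± 0.42, adjusted p = 0.0263; call kept only without γd replicate 1, γd replicate 2, γm+d replicate 1 or α/βp replicate 2, otherwise adjusted p 0.0531 to 0.107). Without normalisation the br call was lost (1.68, adjusted p = 0.0609). eyeless (ey), the Pax6 gene of Kenyon cells, stood at 1416 and 1273 TPM in the γd libraries, 1689.6 and 2382 in γm+d, 631 and 1207 in α/βp, 1746 and 1784 in α/βs and 2092 and 2809 in α/βc, lower in the accessory subtype of each class (log2 fold change −1.02 ± 0.25, adjusted p = 0.0424; call kept only without γd replicate 2, γm+d replicate 1 or α/βp replicate 2, otherwise adjusted p 0.0523 to 0.147). With median-ratio scaling it was −0.48 (adjusted p = 0.312). Of 12 Kenyon cell marker genes, ey was the only one called (2.11% of all genes fell), and 8 had an unadjusted p under 0.05, against 1785 of all 8118 genes. The summed level of the 12 was 9586 to 13438 TPM in accessory and 12332 to 15543 TPM in main calyx libraries (exact permutation test within class, two-sided, p = 0.0222, adjusted p = 0.081). Mef2 had −0.84 and toy −0.55 (adjusted p = 0.0583 and 0.0805), while Pka-C1 had 0.14. The median log2 fold change of the 12 was −0.56 as reported (all genes −0.23), −0.61 without normalisation (all genes −0.79) and −0.14 with median-ratio scaling (all genes −0.47), so that relative to all genes the markers were not lower in the last pair of fits.

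**Figure D5:**
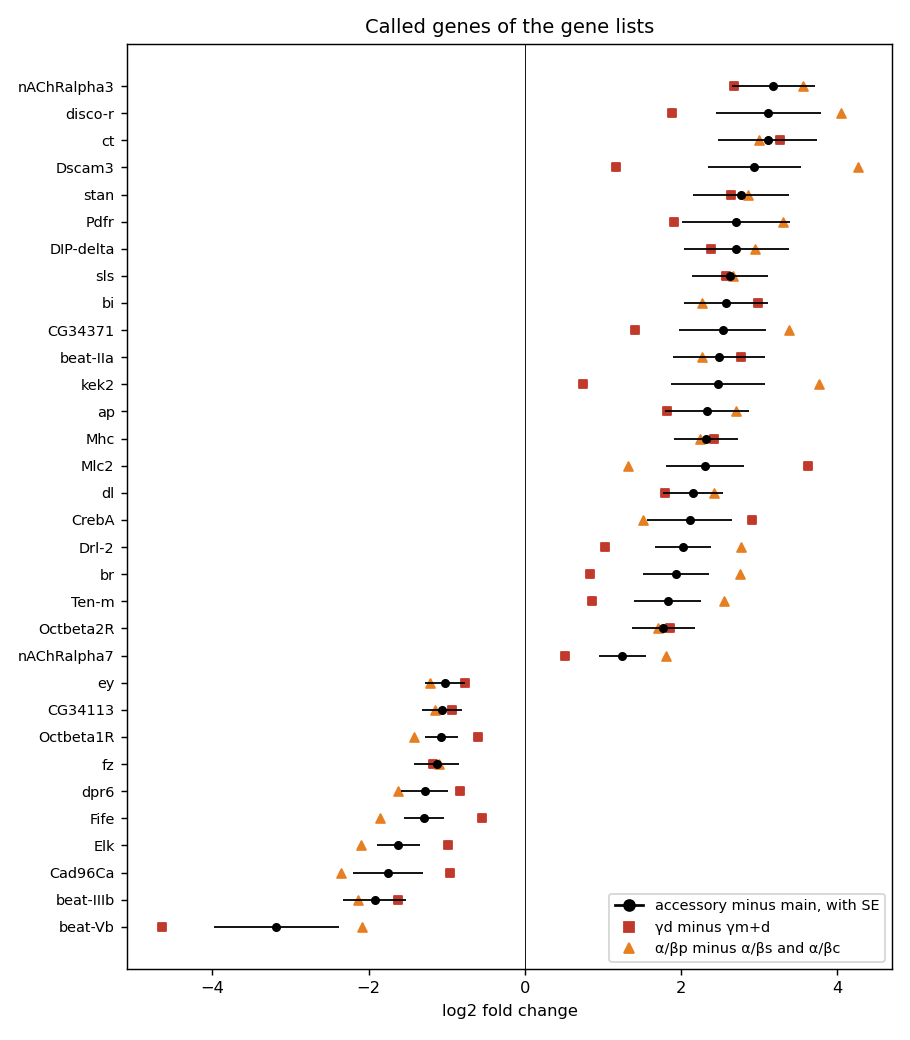
The 32 called genes of the gene lists, with the log2 fold change of accessory minus main calyx and its standard error (black), of γd minus γm+d (red squares) and of α/βp minus α/βs and α/βc (orange triangles). nAChRalpha3, ct and stan have similar effects in both classes, whereas for Dscam3, kek2 and disco-r the α/β point lies above the γ point, with no interaction call for any of these 6 genes.

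Of 8 tested muscle markers 3 rose and none fell, against 1.12% and 2.11% of all genes, with a median log2 fold change of 2.00 (all genes −0.23). Mhc (muscle myosin heavy chain) stood at 49.0 and 24.2 TPM in the γd libraries, 8.54 and 16.6 in γm+d, 70.7 and 182 in α/βp, 36.1 and 26.2 in α/βs and 28.9 and 30.7 in α/βc (log2 fold change 2.32 ± 0.41, adjusted p = 0.0123). Mlc2 (a myosin light chain) stood at 455 and 197 TPM in the γd libraries, 32.3 and 26.7 in γm+d, 174 and 97.4 in α/βp, 49.3 and 64.2 in α/βs and 65.1 and 48.6 in α/βc (log2 fold change 2.31 ± 0.50, adjusted p = 0.0266; call lost without γm+d replicate 2, α/βp replicate 1, α/βs replicate 1 or α/βc replicate 2, adjusted p 0.0526 to 0.0849). sls (a titin-like sarcomere protein) stood at 20.0 and 11.9 TPM in the γd libraries, 5.19 and 7.07 in γm+d, 55.5 and 95.5 in α/βp, 16.5 and 16.9 in α/βs and 14.0 and 15.6 in α/βc (log2 fold change 2.63 ± 0.49, adjusted p = 0.0153; 0.0512 without α/βp replicate 1). In each, all accessory libraries were above the main calyx libraries of their class. The summed level of the 10 muscle markers was 409 to 906 TPM in accessory and 113 to 400.1 TPM in main calyx libraries (exact permutation test within class, two-sided, p = 0.0111, the smallest possible, adjusted p = 0.081 over 17 measures), while the flight muscle actin gene Act88F was listed at 0 in all libraries but α/βp replicate 2 (1.77 TPM) and α/βs replicate 1 (0.13 TPM). Without normalisation the calls of Mhc (1.69, adjusted p = 0.0686) and sls (1.75, adjusted p = 0.0849) were lost and the median was 1.38 (all genes −0.79). sls also shares 1089 exonic bases with an antisense RNA gene. The part of muscle RNA in the other calls was not tested.

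Among the other marker lists, the summed cholinergic markers also separated within each class. They were at 428 to 638 TPM in accessory against 337 to 451 in main calyx libraries (exact p = 0.0111). The study found ChAT and VAChT in all Kenyon cell subtypes, so these genes mark Kenyon cells as well. The log2 fold changes of the 2 genes tested were −0.33 and 0.68, and neither was called. Summed photoreceptor markers were 935 to 4198 TPM in accessory and 489 to 2152 in main calyx libraries (exact p = 0.0667), with the highest value in α/βp replicate 2, and fat body markers 963 to 6118 and 423 to 2467 (exact p = 0.156), highest in the same library. No gene of either list was called, with 3 of 14 and 2 of 6 at an unadjusted p under 0.05. Of all 8118 genes tested, 1785 were under that p. Glia markers summed to 49.2 to 228 and 118 to 219 TPM (exact p = 0.933) and GABAergic markers to 147 to 319.6 and 223 to 287 (exact p = 0.367). Of the 3 GABAergic genes none was called, with log2 fold changes from −0.50 to 2.14 and 1 at an unadjusted p under 0.05. The study reported VGAT in all Kenyon cell subtypes, so this sum does not isolate GABAergic neurons. It reported moderate Gad1 only in α/βp and α/βc, and proposes low driver expression in GABAergic neurons outside the mushroom body. The glutamatergic markers summed to 15.1 to 63.0 and 6.31 to 22.9 (exact p = 0.0333), highest in α/βp replicate 1. Monoaminergic markers overlapped, at 159 to 434 and 111 to 792 (exact p = 0.422). Hemocyte markers summed to at most 10.8 TPM and repo and Hml stayed at or below 3.51 TPM. These permutation tests were two-sided with an adjusted p from 0.081 to 0.933 over the 17 measures. The part of cells other than Kenyon cells in the calls was not tested. Among housekeeping groups, 1 of 83 ribosomal protein genes (RpL23) and 3 of 37 respiratory complex I genes (ND-13B, ND-B14 and ND-MNLL) fell, against 2.11% of all genes, and none rose. Ribosomal protein genes listed at 0 TPM numbered 45 and 15 in γd and 32 and 5 in α/βp, against 3 to 8 in the main calyx libraries (exact permutation test, p = 0.0333). None of 7 heat shock, 9 activity-regulated or 7 clock genes was called, with 1, 3 and 3 at an unadjusted p under 0.05.

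The calyx effect differed between the classes for 19 genes (0.234% of those tested), by the interaction of class and calyx in limma. CG5830 had the smallest p. It stood at 12985 and 11190.3 TPM in the γd libraries, 345 and 445 in γm+d, 486 and 511 in α/βp, 8204 and 8722 in α/βs and 3839.7 and 4053 in α/βc. It was high in γd but low in α/βp, so that the accessory subtype was the higher one in γ and the lower one in α/β (difference in log2 fold change 8.20 ± 0.46, adjusted p = 1.91e-06), and the call held without each library in turn (adjusted p 9.16e-07 to 0.000491). rtp, a photoreceptor protein gene, showed the opposite order at 0 and 0.22 TPM in the γd libraries, 29.3 and 47.6 in γm+d, 87.0 and 159 in α/βp, 21.3 and 14.8 in α/βs and 12.4 and 23.7 in α/βc (difference in log2 fold change −7.50 ± 1.01, adjusted p = 0.0113). Its difference lost the call without γm+d replicate 1 (adjusted p = 0.0896) and γm+d replicate 2 (0.113). pre-lola-G, whose exons share 2046 bases with lola on the same strand, stood at 76.2 and 187 TPM in the γd libraries, 157 and 103 in γm+d, 0.29 and 4.89 in α/βp, 167 and 172 in α/βs and 276 and 259 in α/βc, low in α/βp only (difference in log2 fold change 6.06 ± 0.71, adjusted p = 0.00551; 0.0594 without γm+d replicate 2). CG6726, whose exons share 2911 bases with CG17110 on the same strand, stood at 547 and 201 TPM in the γd libraries, 174 and 349.8 in γm+d, 1.85 and 21.5 in α/βp, 293 and 213 in α/βs and 172 and 314 in α/βc, again low in α/βp only (difference in log2 fold change 5.17 ± 0.66, adjusted p = 0.00871; 0.0767 without γm+d replicate 1 and 0.0594 without γm+d replicate 2). For these overlapping genes the transcripts can be split between the partners. Named after its values were seen, rotund (rn), a zinc finger gene, stood at 0.13 and 0.05 TPM in the γd libraries, 4.80 and 2.90 in γm+d, 2101 and 2099 in α/βp, 26.8 and 17.5 in α/βs and 4.05 and 6.05 in α/βc. It was high in α/βp alone (difference in log2 fold change −8.09 ± 1.35, adjusted p = 0.0287), and it is not among the shared calls. Leaving out 1 library changed the number of such genes to 1 without γm+d replicate 2, 2 without γm+d replicate 1, 6 without α/βs replicate 2, α/βc replicate 1 or α/βc replicate 2, 11 without α/βs replicate 1, 18 without γd replicate 1, 20 without α/βp replicate 1, 121 without α/βp replicate 2 and 359 without γd replicate 2.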

How the data were processed

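TAPIN-seq nuclear RNA of 14 libraries (2 independent replicates of 7 driver lines) was quantified by the authors with kallisto against Ensembl transcripts of BDGP6 together with spike-in and reporter sequences, whose entries they removed with ribosomal RNA before rescaling to TPM. The deposited gene table, in TPM, holds 13931 genes. Estimated counts were not used here, so the count-based limma analysis of the study was not repeated, and read depth and counting error are unknown. Precision is given by the spread between libraries, each library summing to 1000000 TPM (1000001 at most). A replicate here is a separate sample by its label.

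Libraries were grouped by driver line. For the 10 γ and α/β libraries a pseudocount of 1 was added to the TPM before the log2 transform and quantile normalisation, and 8118 genes that reached 10 TPM in any of these libraries were kept. limma 3.58.1 in R 4.3.3 (lmFit, then eBayes with a variance trend) fitted calyx with class as a covariate, and a model with 1 mean per class and calyx gave the class effects and their interaction. Tests were two-sided with Benjamini-Hochberg adjustment over all tested genes, and genes passed at an adjusted p below 0.05 with a 2-fold change. All fold changes are on the log2(TPM + 1) scale, which understates changes of low genes, and values after ± are standard errors. Library measures were compared by exact permutation within class in Python 3.11.15 with scipy 1.17.1. The fit was tested on simulated data.

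Named genes are, in each direction, the 12 called genes with the largest fold change whose libraries do not overlap within either class, every called gene of 30 gene lists (561 of 566 symbols matched), genes called in both classes, and the 4 genes with the smallest interaction p. The comparison, the members and the lists were chosen with earlier results of these data known. Positions and exon overlaps come from Ensembl release 115 (BDGP6), where 8054 of the 8118 genes were found. Alternatives were other pseudocounts, scalings, filters, samples and covariates, each library left out in turn, and a replicate block. Counting genes with identical TPM once was chosen after seeing the data. The α′/β′ libraries entered only 1 alternative and the ranges given beside named genes. No sequences are printed.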

Additional observations from a re-analysis of the deposited data

Results flagged for a closer look

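The log2(TPM + 1) values of the 62 named genes and of the library measures were searched for a library far from the other libraries of its calyx group (126 tests, of which 10 passed; chance gives about 1 in 20). Among the 4 accessory calyx libraries, α/βp replicate 2 stood apart at 2.40 for y, 2.10 for CG33970, 3.18 for ND-MNLL and 0.84 for Obp19a, above the other 3 libraries each time. γd replicate 2 stood apart for CG31371 at 6.09. γd replicate 1 stood apart for beat-IIIb at 2.30 and for CG6154 at 0.66. Among the 6 main calyx libraries, α/βs replicate 1 stood apart for unc-4 at 2.28, γm+d replicate 1 for ND-MNLL at 3.52 and α/βc replicate 2 for disco-r at 3.60. The calyx groups hold subtypes of both classes, so a library apart from its group can differ by subtype as well as by library.

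The calyx difference itself differed between the classes for 4 named genes in the limma interaction test described in the report. The γ log2 fold change minus the α/β log2 fold change was 8.20 for CG5830, 6.06 for pre-lola-G, 5.17 for CG6726 and −7.50 for rtp.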

How the results depend on the processing

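The comparisons called 91 genes higher and 171 lower in the accessory calyx, 34 within γ, 260 within α/β, 19 with a class difference and 5 in both classes. In that order the counts that moved by over 1.5 times were as follows. Without normalisation beyond TPM they were 44 higher, 52 within γ, 101 within α/β and 3 in both classes. With median-ratio scaling they were 58, 100.0 lower, 69 within α/β, 10.0 with a class difference and 2 in both. Without a filter on low values they were 26, 40.0, 8, 163, 5 and 1. Without a variance trend they were 55, 70.0, 13, 131, 10.0 and 1. With all 14 libraries they were 149, 315, 119 within γ, 72 with a class difference and 18 in both. With the number of detected genes as a covariate they were 0, 2, 1, 67, 56 and 0. Without the class covariate they were 49 and 87. With 1 value per subtype they were 0 and 0. Without the first replicates of γd and α/βp together they were 45, 104, 56 within γ, 29 with a class difference and 10.0 in both. Pseudocounts of 0.1 (71 and 144) and 5 (91 and 150.0), and counting genes with identical TPM once (91 and 169, chosen after seeing the data), stayed within that range.

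Each library left out in turn gave 22 to 163 genes higher, 46 to 370.0 lower, 1 to 764 within γ, 77 to 705 within α/β, 1 to 359 with a class difference and 0 to 76 in both, and a difference in genes above 0 TPM of −3185.1 to −1651.1. That difference was −2397.0 for genes at or above 1 TPM. With the replicate number as a replicate block 113 genes were higher and 218 lower, 56 were called within γ and 8 in both classes, and 91 of the genes called higher and 170.0 of those called lower were shared with the fit without the block. The study calls the replicates independent and names no pairing by number. The correlations of deviations between same-numbered libraries ranged from −0.059 to 0.168 over 10 pairs of subtypes. With 2 libraries per subtype, these values cannot exclude a preparation shared by same-numbered libraries that affects some of the genes. For the named genes no value changed sign. With a library left out 425 values passed the threshold as reported and 194 no longer did, and under the other alternatives 619 did and 297 did not.

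For the 4 genes named for a class difference, the value followed here is the γ effect minus the α/β effect, a choice made after the values were seen. Their accessory minus main log2 fold change was not called in the reported fit, and it took the opposite sign in 22 of 100 alternative fits, 10 for CG5830 (−0.07 as reported, from −1.5 to 0.98) and 12 for rtp (0.00, from −1 to 1.87). For pre-lola-G (−3.15, from −4.29 to −2.30) and CG6726 (−2.43, from −3.16 to −1.62) the sign held.

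There are 2 libraries per subtype, and α/βp and γd each rest on 1 driver line. TPM keep no read depth, so counting error could not be set against the spread between libraries, and genes listed at 0 in a shallow library cannot be told apart from genes without transcripts.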
